A study of Mus musculus with 18 samples.

Results

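The genes described here encode 5 cytochrome P450 enzymes of the Cyp4a subfamily (Cyp4a10, Cyp4a12a, Cyp4a14, Cyp4a31 and Cyp4a32) and 5 acyl-CoA thioesterases (Acot1, Acot2, Acot3, Acot4 and Acot12). They were taken by name as omega-oxidation and thioesterase genes, with earlier results of these data known. They do not cover either family: 8 other Cyp4 genes and 10 other thioesterase genes were tested and are given further below. All 10 were among the 28030 genes of the deposited table and among the 12477 genes tested. RNA was sequenced from hepatocytes of the pericentral (PC) or the periportal (PP) side of the liver lobule, isolated by perfusion with digitonin, in 6 groups of 3 libraries. All groups came from wild-type C57BL/6J male mice aged 12 weeks on normal chow, which had been trained for 3 days to an overnight fast of 16 h and daytime feeding of 8 h. The fed mice were killed at clock hour 13 after 4 h with food and 20% sucrose water. Mice fasted for 8 h were killed at clock hour 21 and mice fasted for 24 h again at clock hour 13. The time of day and the fast cannot be told apart in the 8 h groups. Whether replicates or zones share a mouse is not stated in the labels, so p-values measure only the spread between these samples, which may be technical.

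Omega-oxidation begins in the endoplasmic reticulum, where Cyp4a enzymes put a hydroxyl group on the far end of a fatty acid; alcohol and aldehyde dehydrogenases then turn that end into an acid, and the resulting dicarboxylic acids are shortened in peroxisomes. Acyl-CoA thioesterases split fatty acyl-CoA into the free acid and coenzyme A in the cytosol, the mitochondria or the peroxisomes. Many genes of both families are classic targets of PPARα (gene Ppara), the nuclear receptor that responds to fatty acids in the fasting liver.

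In both zones all 5 thioesterase genes of this group were higher after 24 h without food than in fed mice. Acot1, which encodes the cytosolic enzyme, rose most, by 17.1-fold in pericentral and 17.1-fold in periportal hepatocytes. At 8 h Acot1 was 6.46-fold higher than fed in pericentral and 6.43-fold higher in periportal hepatocytes, calls that some fits without 1 library lost. In pericentral hepatocytes Acot3 was 3.50-fold lower at 8 h, a fall that passed narrowly. It passed in 3 of the 18 fits that left out 1 library. The abundant Cyp4a10 and Cyp4a14 were 2.49-fold to 3.82-fold higher on the fitted means at 24 h but did not pass the test, and 1 periportal fed library held 7.26 times as much Cyp4a10 and 5.34 times as much Cyp4a14 as the lowest library of its group.

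Several of these genes are near-identical copies, which decides how far their reads can be told apart, so their sequences are shown first. On mouse chromosome 4 of the GRCm38 build the annotation (GENCODE M21) places Cyp4a12a at chr4:115299046-115332815, Cyp4a14 at chr4:115486200-115496142 on the opposite strand to the others, Cyp4a10 at chr4:115518264-115533649, Cyp4a31 at chr4:115563649-115579015 and Cyp4a32 at chr4:115600969-115621602. On chromosome 12 the order along the plus strand is Acot2 (chr12:83987861-83993873), Acot1 (chr12:84009490-84018371), Acot4 (chr12:84038379-84048601), Acot3 (chr12:84052144-84060402), Acot5 and Acot6. Acot12 stands alone at chr13:91741512-91786148. All 10 are annotated as protein-coding. The coding sequences of Cyp4a10 and Cyp4a32 agreed at 97.19% of aligned bases, those of Cyp4a10 and Cyp4a31 at 96.6%, and those of Acot1 and Acot2 at 95.5%. A stretch of 60 coding bases (positions 745 to 804 in each of these Cyp4a genes, positions 580 to 639 in Acot1 and 703 to 762 in Acot2) shows how little separates the copies, with capitals marking each base that differs from the first sequence of its set.
Cyp4a10: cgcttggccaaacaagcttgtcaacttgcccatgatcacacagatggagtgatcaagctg
Cyp4a31: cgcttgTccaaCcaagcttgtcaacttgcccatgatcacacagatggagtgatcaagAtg
Cyp4a32: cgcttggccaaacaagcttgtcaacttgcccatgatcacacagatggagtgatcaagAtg
Acot1: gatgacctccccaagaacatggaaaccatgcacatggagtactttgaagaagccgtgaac
Acot2: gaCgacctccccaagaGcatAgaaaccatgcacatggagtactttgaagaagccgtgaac
Within this stretch Cyp4a32 differs from Cyp4a10 at 1 base, Cyp4a31 at 3 and Acot2 from Acot1 at 3.

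The share of a transcript that another gene also carries was counted in windows of 31 bases. It was 65.3% for Cyp4a32, 62.17% for Cyp4a12a (all of it shared with Cyp4a12b), 45.5% for Cyp4a10 and 33.0% for Cyp4a31. Among the thioesterases it was 39.2% for Acot1, 37.3% for Acot2, 23.4% for Acot3 and 8.86% for Acot4. Cyp4a14 shared 2.07% of its windows and Acot12 shared 0%. The Cyp4a32 transcript used has 1530 bases, all of them coding. Those of Cyp4a10 and Cyp4a31 have 2109 and 2509 bases, of which 1530 are coding. The shares and the levels per length depend on these annotated lengths. Reads from shared windows are divided between copies by estimation, so the levels of Cyp4a31, Cyp4a32, Cyp4a12a and Acot2 in particular are uncertain, and sums over copies are given beside their tests. The sums do not take in every sharer. Acot3 shared most with Gm49366 (11.7% of its windows), which is in no sum. Acot1 shared 13.1% with Acot5 and 12.0% with Acot3, which are outside its sum with Acot2.

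**Figure D1:**
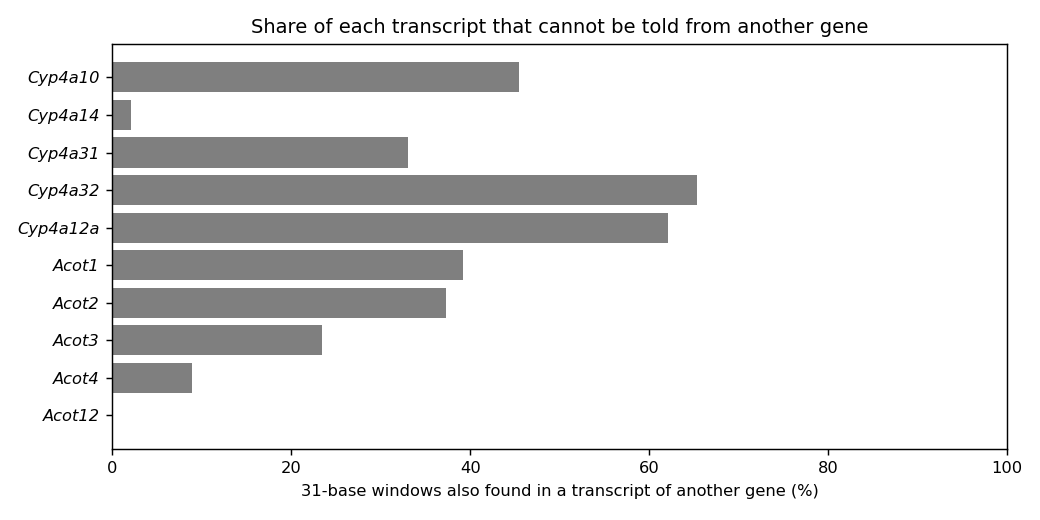
Bars give, for each of the 10 genes, the percentage of the 31-base windows of its transcript that also occur in a transcript of another gene, on an axis from 0 to 100. The longest bars are Cyp4a32 (65.3%), whose transcript holds coding bases only, and Cyp4a12a (62.17%), and Acot12 has 0%.

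Libraries held between 18359911 and 26384358 estimated counts. Levels in CPM are counts scaled by each library's total times its TMM factor, and 1 count was worth 0.0346 to 0.0559 CPM. The zone labels matched their markers: all 10 pericentral markers tested were lower in periportal hepatocytes averaged over the 3 states (log2 fold change of Cyp2e1 −3.75 ± 0.34 SE) and 9 of 10 periportal markers were higher (Cyp2f2 2.97 ± 0.20), with edgeR's quasi-likelihood test. Of all genes tested 9.96% were lower and 10.3% higher. The median of the periportal markers between zones was 3.34 fed, 2.99 at 8 h and 1.81 at 24 h. For the pericentral markers it was −4.22, −3.65 and −3.46. At 24 h against fed, 7 of the 10 periportal markers rose in pericentral and 1 in periportal hepatocytes. Of all genes tested, 10.8% and 9.59% rose there. How this enters the 24 h zone values was not tested. Pericentral 24 h replicate 2 stood apart in its group, with Glul, the glutamine synthetase of the innermost pericentral cells, at 928, 111 and 707 CPM in replicates 1 to 3 and the periportal enzyme Sds at 101, 215 and 94.8 CPM. Summed markers of endothelial cells were at 3.28 to 11.7 CPM in pericentral and 4.16 to 38.6 CPM in periportal libraries, those of Kupffer cells and leukocytes at 0.698 to 5.99 and 0.727 to 24.6 CPM, of stellate cells at 0.860 to 5.14 and 1.29 to 16.03 CPM, and of bile duct cells at 19.3 to 37.6 and 32.8 to 56.7 CPM, with the bile duct marker Epcam at 0 in all 18 libraries. Hepatocyte markers summed to 69744 to 106928 CPM in pericentral and 119884 to 200885 CPM in periportal libraries. In the zone average 6 of 7 endothelial, 5 of 8 Kupffer cell and leukocyte, 0 of 3 stellate and 2 of 3 bile duct markers tested passed as higher in periportal libraries, where 10.3% of all genes tested did. Their median log2 fold changes were 2.10, 1.90, 1.27 and 1.02. Of the 8 stellate markers listed, only those 3 were tested. The part of these in the zone values below was not tested.

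Differences are log2 fold changes with their standard error (SE) from edgeR's quasi-likelihood test, fitted on all genes and libraries, and a gene passed at a Benjamini-Hochberg adjusted p under 0.05. At 24 h against fed, 5 of the 10 genes passed in pericentral hepatocytes, all higher and all thioesterases, where 21.8% of the 12477 genes tested passed. In periportal hepatocytes 7 of 10 passed, all higher, where 19.6% of the tested genes did. The median log2 fold change of the 10 genes was 1.69 in pericentral and 1.43 in periportal hepatocytes, against 0.01 and 0.00 over all genes tested. At 8 h against fed, 3 of 10 passed in pericentral hepatocytes (2 higher, 1 lower), where 13.8% of tested genes passed, and 3 of 10 passed in periportal hepatocytes, all higher, where 14.4% did. Between 8 h and 24 h, 4 of 10 passed in pericentral hepatocytes (9.71% of all genes tested) and 3 of 10 in periportal hepatocytes (7.46%), all higher and all thioesterases. The state comparisons of a zone share their libraries with each other.

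**Figure D2:**
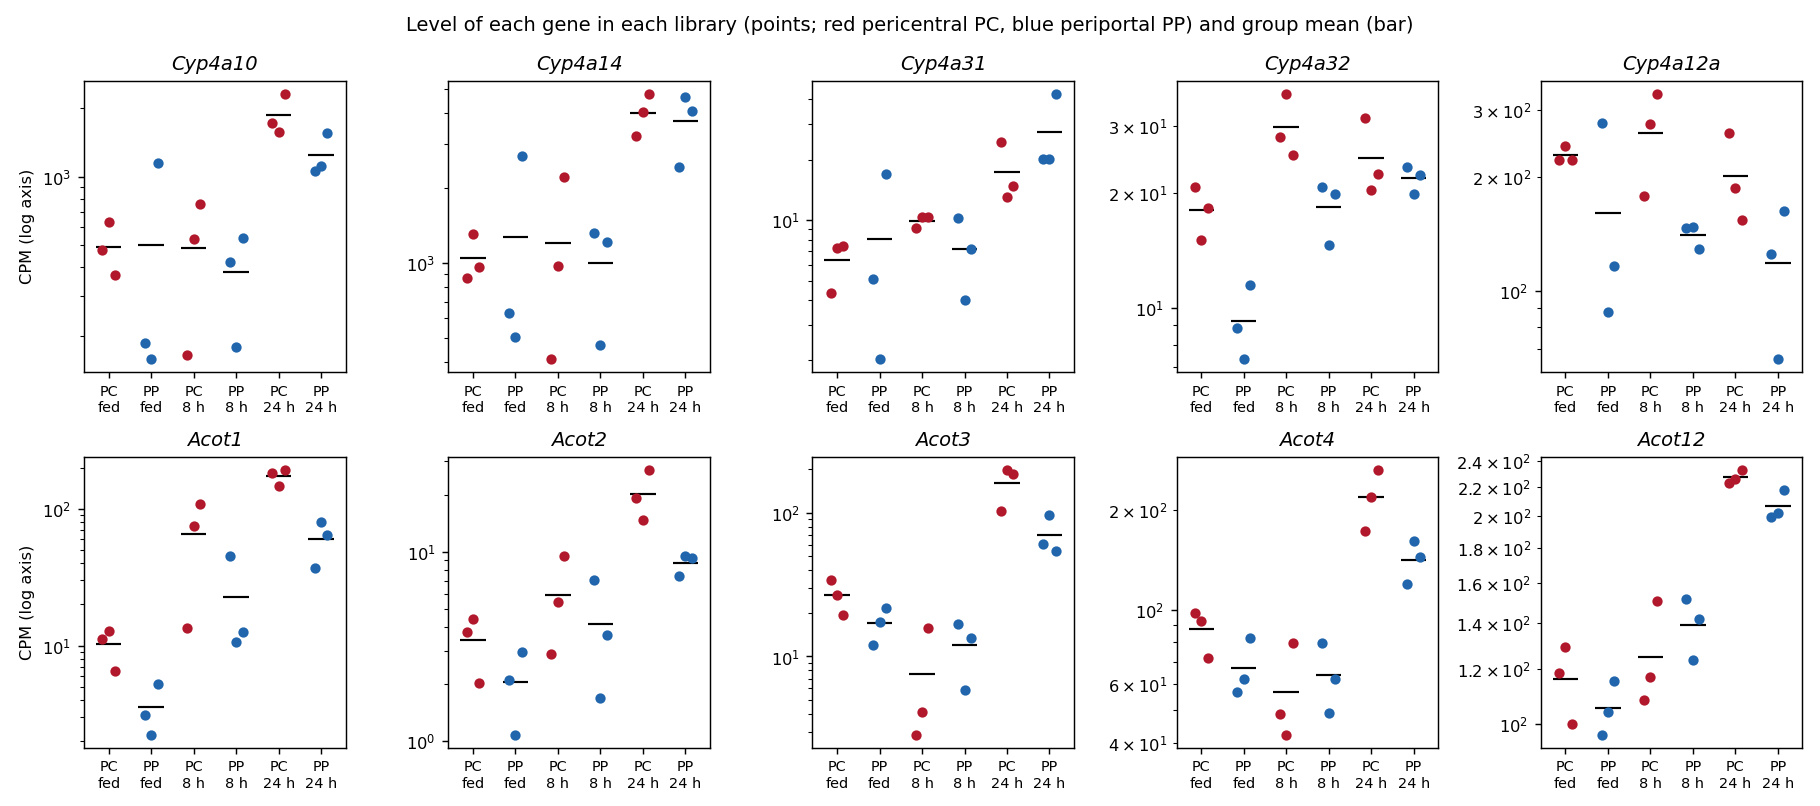
Each point is 1 library and each bar the mean of the 3 libraries of a group, in CPM on a log axis, for the 10 genes in the 6 groups (red pericentral, blue periportal). Acot12 and the other thioesterases are higher at 24 h than fed without overlap in both zones, while Cyp4a10, Cyp4a14 and Cyp4a31 have 1 high periportal fed library.

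**Figure D3:**
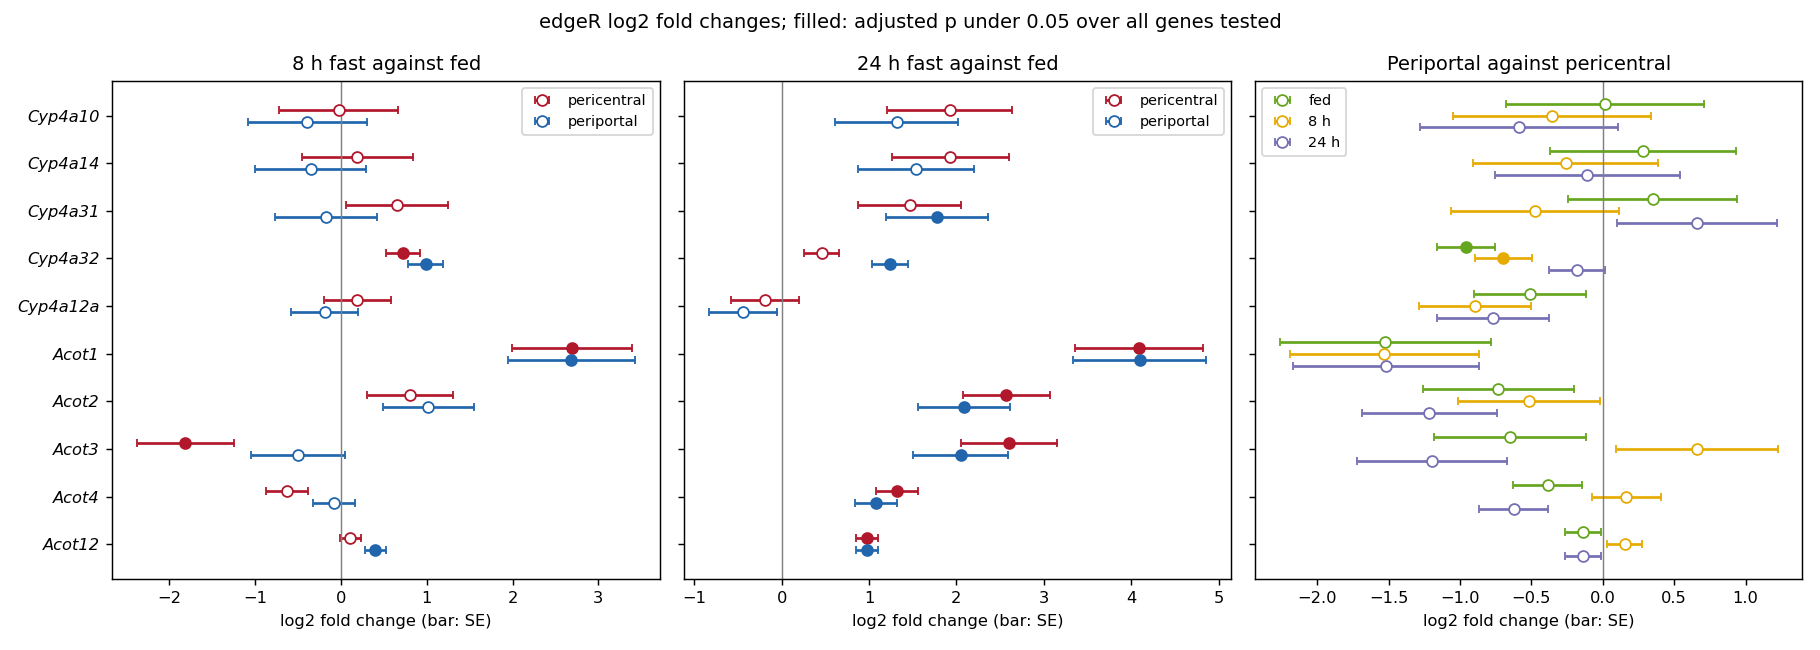
Points give the log2 fold change and bars its SE for 8 h against fed, 24 h against fed, and periportal against pericentral in each state; filled points passed at an adjusted p under 0.05. At 24 h the filled points are the 5 thioesterases in both zones plus Cyp4a31 and Cyp4a32 in periportal hepatocytes, and in the zone panel Cyp4a32 alone is filled, in the fed state and at 8 h.

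Cyp4a14 and Cyp4a10, the principal fasting-induced fatty acid omega-hydroxylases of mouse liver, were the most abundant of the 10 genes per length. In CPM per kilobase of transcript, Cyp4a14 was at 421 ± 92.3 (SD, n = 3) in pericentral fed and 1605 ± 304 in pericentral 24 h hepatocytes, and Cyp4a10 at 234 ± 61.7 and 884 ± 182. Both ranked first and second, Cyp4a14 above Cyp4a10, in each of the 6 groups. At the other end, Acot2 had 1.55 ± 0.562 and 9.24 ± 2.84, and Cyp4a31 2.53 ± 0.701 and 6.96 ± 2.46, in the same groups and unit. Acot1 ranked 8 of 10 in pericentral fed and 4 of 10 in pericentral 24 h hepatocytes, at 4.49 ± 1.44 and 76.6 ± 10.7 CPM per kilobase.

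The levels of Cyp4a10 in pericentral hepatocytes, for replicates 1, 2 and 3, were 477, 629.6 and 371 CPM fed, 164, 534 and 756 CPM after 8 h, and 1720.1, 1576 and 2299 CPM at 24 h. In periportal hepatocytes they were 187, 158 and 1149 CPM fed, 423, 178 and 538 CPM after 8 h, and 1058, 1111 and 1558 CPM at 24 h. All pericentral 24 h libraries lay above all pericentral fed ones, whereas periportal fed replicate 3 lay within the periportal 24 h range. Cyp4a14 followed the same pattern, with 874, 1310.4 and 964 CPM fed and 3237, 4025 and 4755 CPM at 24 h in pericentral hepatocytes. In periportal hepatocytes Cyp4a14 stood at 632, 504 and 2693 CPM fed, 1315, 469 and 1219.8 CPM after 8 h, and 2429.9, 4645 and 4067 CPM at 24 h. At 8 h pericentral replicate 1 and periportal replicate 2 were the lowest of their groups for both genes, and for pericentral Cyp4a14 the 8 h values were 413, 973 and 2214 CPM.

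At 8 h against fed neither gene passed (Cyp4a10 −0.02 ± 0.69 in pericentral and −0.39 ± 0.69 in periportal hepatocytes, Cyp4a14 0.19 ± 0.65 and −0.35 ± 0.65). Without periportal fed replicate 3 both periportal values turned positive and did not pass, at 1.14 for Cyp4a10 and 0.82 for Cyp4a14 (edgeR adjusted p = 0.21 and 0.425). At 24 h against fed the log2 fold change of Cyp4a10 was 1.92 ± 0.72 in pericentral (edgeR adjusted p = 0.0721) and 1.32 ± 0.70 in periportal hepatocytes (adjusted p = 0.221). For Cyp4a14 it was 1.93 ± 0.67 (adjusted p = 0.0555) and 1.54 ± 0.66 (adjusted p = 0.126). None of these passed. Without periportal fed replicate 3, the same fit gave Cyp4a10 2.84 in periportal (adjusted p = 0.00541) and 1.91 in pericentral hepatocytes (adjusted p = 0.013), and Cyp4a14 2.70 (adjusted p = 0.0106) and 1.92 (adjusted p = 0.0182), so that all 4 then passed. That library belongs to neither group of the pericentral comparison and enters it through the shared fit. With only the 2 pericentral groups in the fit, Cyp4a10 and Cyp4a14 passed as well (adjusted p = 0.000695 and 0.000337). Cyp4a14 in pericentral hepatocytes also passed without pericentral 8 h replicate 1 (adjusted p = 0.0392) or 3 (0.039) or without periportal fed replicate 2 (0.0445), and with limma-voom (0.0376) and DESeq2 (0.0198). Pericentral Cyp4a10 passed with DESeq2 (adjusted p = 0.027) and periportal Cyp4a14 with limma-voom (adjusted p = 0.0418). Against 8 h, the 24 h values were 1.94 ± 0.72 and 1.71 ± 0.71 for Cyp4a10 and 1.74 ± 0.67 and 1.89 ± 0.67 for Cyp4a14 in pericentral and periportal hepatocytes, none of which passed (edgeR adjusted p = 0.11, 0.173, 0.125 and 0.108). Without periportal fed replicate 3, Cyp4a10 passed against 8 h in pericentral and periportal hepatocytes (adjusted p = 0.0253 and 0.0491) and Cyp4a14 in periportal ones (0.0447). With DESeq2, pericentral Cyp4a10 (adjusted p = 0.0393) and periportal Cyp4a14 (0.0376) passed against 8 h. Over all settings tried, the adjusted p of pericentral Cyp4a10 at 24 h against fed ran from 0.000695 to 0.189 and that of pericentral Cyp4a14 from 0.000337 to 0.152.

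Periportal fed replicate 3 was high for other genes of the group too. It held the highest periportal fed level of 9 of the 10 genes, with Cyp4a12a as the exception. A list of 26 genes, PPARα targets outside these families and Ppara itself, summed to 8108, 7000 and 9735 CPM in periportal fed replicates 1 to 3, highest in replicate 3. At 8 h the same list was lowest in pericentral replicate 1 (8998 CPM, against 10766 and 12085) and in periportal replicate 2 (8485 CPM, against 12765 and 9034), the libraries that were also lowest for Cyp4a10 and Cyp4a14. Within the periportal fed group the SD of log2 CPM was 1.59 for Cyp4a10 and 1.31 for Cyp4a14, against a median of 0.18 over all genes tested and with 2.53% of genes above 1.

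**Figure D4:**
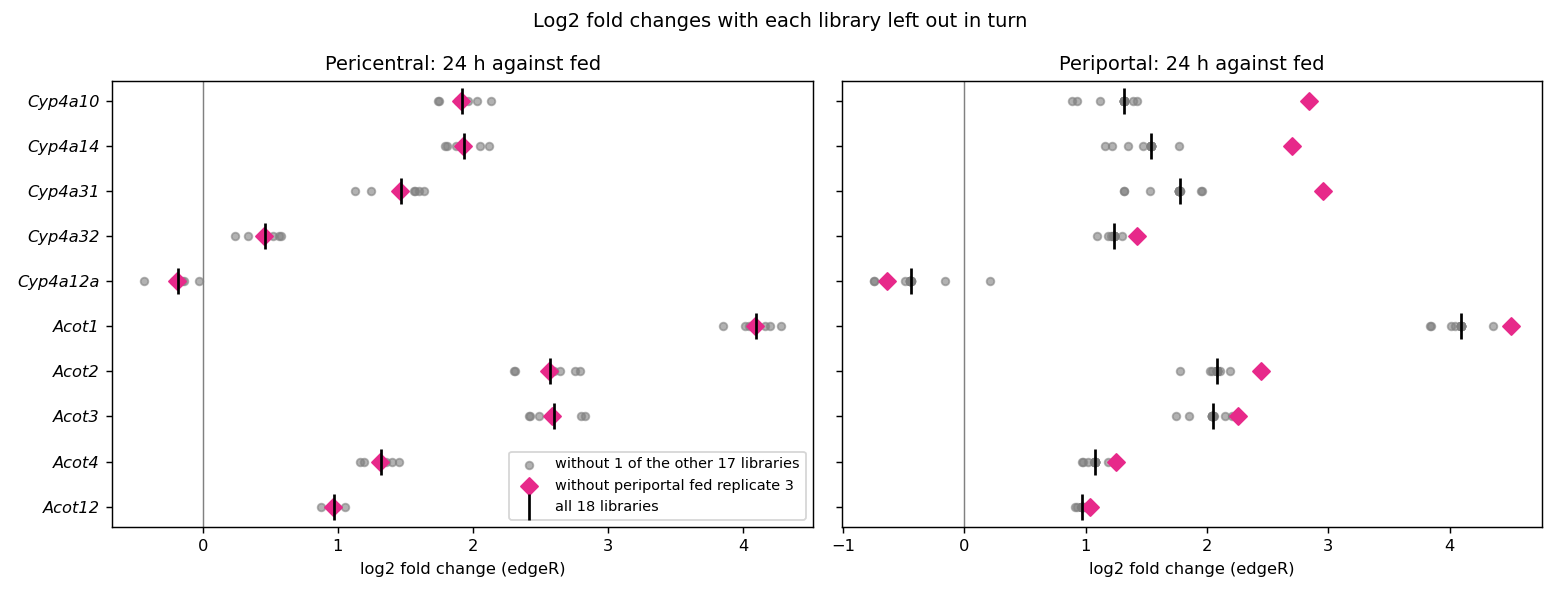
Points give the log2 fold change of each gene at 24 h against fed when 1 of the 18 libraries is left out of the whole fit; the pink diamond is the fit without periportal fed replicate 3 and the black line the fit with all 18. The diamonds for Cyp4a10 (2.84), Cyp4a14 (2.70) and Cyp4a31 (2.95) in periportal hepatocytes stand apart from the other points, and those of the thioesterases lie near them.

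Cyp4a31 and Cyp4a32 are close relatives of Cyp4a10 on its downstream side and were far less abundant per length. Cyp4a31 measured 5.08, 2.04 and 16.9 CPM in periportal fed and 20.1, 20.1 and 42.4 CPM in periportal 24 h libraries, which did not overlap but in which fed replicate 3 was close to the 24 h values. The difference of 1.77 ± 0.58 passed narrowly (edgeR adjusted p = 0.0476) and did so in 2 of the 18 fits without 1 library: without periportal fed replicate 3 (2.95, adjusted p = 0.00185) and without periportal 8 h replicate 2 (adjusted p = 0.0487). Over the settings tried its adjusted p ran from 0.00185 to 0.227. In pericentral hepatocytes Cyp4a31 was at 4.32, 7.25 and 7.48 CPM fed and 24.5, 13.1 and 14.8 CPM at 24 h, which did not overlap, with a difference of 1.46 ± 0.59 that did not pass (adjusted p = 0.0938). It passed without periportal fed replicate 2 (adjusted p = 0.0413) or 3 (0.0232), and with only the pericentral groups in the fit (0.0123). After 8 h Cyp4a31 measured 9.14, 10.3 and 10.4 CPM in pericentral and 10.2, 4.00 and 7.22 CPM in periportal libraries. Between 8 h and 24 h its rises of 0.81 ± 0.57 and 1.94 ± 0.59 did not pass (edgeR adjusted p = 0.42 and 0.0636). The periportal one passed with DESeq2 (0.0144) and limma-voom (0.0324).

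For Cyp4a32 the replicates lay within 1.56-fold of each other in every group. Its periportal levels were 8.87, 7.35 and 11.5 CPM fed, 20.8, 14.6 and 19.8 CPM after 8 h, and 23.4, 19.9 and 22.2 CPM at 24 h. Its pericentral levels were 20.7, 15.004 and 18.3 CPM fed, 28.02, 36.2 and 25.2 CPM after 8 h, and 31.5, 20.3 and 22.4 CPM at 24 h. The periportal fed libraries were the lowest of all 18 and overlapped no other group. Against fed, Cyp4a32 rose in periportal hepatocytes by 0.99 ± 0.20 at 8 h (edgeR adjusted p = 0.00389) and by 1.24 ± 0.20 at 24 h (adjusted p = 0.000561), both also in each fit without 1 library. In pericentral hepatocytes it rose at 8 h by 0.73 ± 0.20 (adjusted p = 0.0205), which missed the threshold without pericentral 8 h replicate 2 (0.0981) or without pericentral fed replicate 2 (0.0898) or 3 (0.0576), and at 24 h the difference of 0.46 ± 0.20 did not pass (adjusted p = 0.111). When the counts of Cyp4a10, Cyp4a31 and Cyp4a32 were summed, which Cyp4a10 dominates, no comparison passed: the periportal value was −0.35 at 8 h (adjusted p = 0.795), at 24 h it was 1.33 (adjusted p = 0.196), and the pericentral value at 24 h was 1.88 (adjusted p = 0.0657).

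Cyp4a12a, a male-biased member known as an arachidonic acid omega-hydroxylase, passed in none of the state comparisons. Its pericentral levels were 222, 242 and 222 CPM fed, 178, 276 and 331 CPM after 8 h, and 262, 187 and 154 CPM at 24 h. Its periportal levels were 277, 87.9 and 116 CPM fed, 146, 147 and 129 CPM after 8 h, and 125, 66.01 and 163 CPM at 24 h, with fed replicate 1 above every pericentral fed library and 24 h replicate 2 the lowest of all 18. The changes at 24 h of −0.19 ± 0.39 in pericentral and −0.44 ± 0.39 in periportal hepatocytes did not pass (edgeR adjusted p = 0.786 and 0.484). Of 10 other male-biased liver genes, Nudt7, given below with the genes of coenzyme A, fell at 24 h against fed in both zones and the other 9 did not pass. Of all genes tested 21.8% passed there in pericentral and 19.6% in periportal hepatocytes. In the zone average 2 of those 9 were higher and 4 lower in periportal hepatocytes, where 10.3% of all genes tested were higher and 9.96% lower.

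Acot1 (cytosolic) and Acot2 (mitochondrial) stand side by side and were both above their fed group means at 8 h and further above them at 24 h in both zones. Acot1 in pericentral hepatocytes measured 11.2, 12.8 and 6.54 CPM fed, 13.5, 75.2 and 109 CPM after 8 h, and 183, 147 and 193 CPM at 24 h. In periportal hepatocytes Acot1 measured 3.09, 2.24 and 5.25 CPM fed, 45.02, 10.7 and 12.6 CPM after 8 h, and 36.7, 80.5 and 64.6 CPM at 24 h. The fed libraries of each zone lay below every fasted library of that zone, but the 8 h libraries spread over 8.09-fold in pericentral and 4.22-fold in periportal hepatocytes. In pericentral hepatocytes Acot1 rose by 2.69 ± 0.70 at 8 h and 4.09 ± 0.73 at 24 h (edgeR adjusted p = 0.02 and 0.00154). In periportal hepatocytes it rose by 2.68 ± 0.74 and 4.09 ± 0.76 (adjusted p = 0.0269 and 0.00228). The 24 h rises passed in every fit without 1 library. The pericentral 8 h rise missed the threshold without pericentral 8 h replicate 2 (adjusted p = 0.0524) or 3 (0.076), or fed replicate 1 (0.0573) or 3 (0.0802), and the periportal one without 8 h replicate 1 (1.72, adjusted p = 0.139), fed replicate 1 (0.0999) or fed replicate 2 (0.0987). With only the groups compared in the fit the 8 h rises also missed it (adjusted p = 0.121 and 0.0723), as did the periportal one with limma-voom (0.108) or with no filter beyond 1 count (0.0567).

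Acot2, the least abundant of the 10 per length in 4 of the 6 groups, measured 3.77, 4.41 and 2.02 CPM fed, 2.87, 5.44 and 9.47 CPM after 8 h, and 19.1, 14.7 and 27.04 CPM at 24 h in pericentral hepatocytes, and 2.10, 1.08 and 2.94 CPM, 7.07, 1.69 and 3.63 CPM and 7.43, 9.44 and 9.24 CPM in periportal hepatocytes. Its 8 h libraries overlapped the fed libraries in both zones, and its 24 h libraries overlapped neither the fed nor the 8 h libraries of their zone. At 24 h it rose by 2.57 ± 0.50 in pericentral (edgeR adjusted p = 0.00222) and 2.09 ± 0.52 in periportal hepatocytes (adjusted p = 0.0119; 0.0503 without periportal fed replicate 2). At 8 h its differences of 0.80 ± 0.50 and 1.02 ± 0.53 did not pass (adjusted p = 0.338 and 0.234). Between 8 h and 24 h it rose in pericentral hepatocytes by 1.77 ± 0.48 (adjusted p = 0.033), a call lost without pericentral 24 h replicate 1 (0.0572) or 3 (0.126), without pericentral 8 h replicate 1 (0.125) or 2 (0.108), with no filter beyond 1 count (0.0791) or with only those groups in the fit (0.0753). Acot1 and Acot2 summed, which does not depend on how reads are split between them, rose at 8 h by 2.40 and 2.27 (adjusted p = 0.0291 and 0.044) and at 24 h by 3.84 and 3.63 (adjusted p = 0.00179 and 0.00332) in pericentral and periportal hepatocytes.

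Acot3 and Acot4, the next neighbours along chromosome 12, encode peroxisomal thioesterases; Acot4 is known for hydrolysing succinyl-CoA and other dicarboxylyl-CoAs, and Acot3 for long-chain acyl-CoA. Peroxisomal enzymes of this kind carry their import signal in the last residues, and the ends of the coding sequences are shown because the 4 genes differ there. Each line gives the last 10 codons before the stop codon, with the final 3 in capitals.
Acot1: agtgagtgtttgcatgtgtctCCTAAAATA
Acot2: ttcttccacaaacagttgggtAGCAAGAGT
Acot3: ggcaaaaagaagacaatcccaGCAAAACTG
Acot4: agtacccacagcagagcctccTGTAGACTG
Acot3 and Acot4 both end in the codon CTG, and Acot1 and Acot2 do not.

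Acot3 in pericentral hepatocytes fell at 8 h before it rose. Its pericentral levels were 33.8, 26.6 and 19.5 CPM fed, 2.87, 4.09 and 15.7 CPM after 8 h, and 102, 198 and 184 CPM at 24 h. Its periportal levels were 12.05, 17.3 and 21.6 CPM fed, 16.7, 5.82 and 13.5 CPM after 8 h, and 60.1, 96.9 and 54.1 CPM at 24 h. All pericentral 8 h libraries lay below all pericentral fed ones, the periportal 8 h and fed libraries overlapped, and every 24 h library was above every fed and 8 h library of both zones. The 8 h change was −1.81 ± 0.56 in pericentral hepatocytes (edgeR adjusted p = 0.0476) and −0.50 ± 0.55 in periportal hepatocytes, where it did not pass (adjusted p = 0.617). The pericentral fall passed in 3 of the 18 fits without 1 library: without pericentral 8 h replicate 3 (−2.94, adjusted p = 0.00242), pericentral 24 h replicate 1 (0.0492) or periportal 8 h replicate 2 (0.0401). It was weakest without pericentral 8 h replicate 1 (−1.41, adjusted p = 0.146), and over all settings its adjusted p ran from 0.00242 to 0.18 while its sign stayed negative. At 24 h against fed Acot3 rose by 2.60 ± 0.55 and 2.05 ± 0.55 in pericentral and periportal hepatocytes (adjusted p = 0.00436 and 0.018), and against 8 h by 4.40 ± 0.61 and 2.55 ± 0.56 (adjusted p = 0.000846 and 0.016). Without pericentral 8 h replicate 3 the pericentral value against 8 h was 5.52 (adjusted p = 0.000134). The periportal rises missed the threshold without periportal 24 h replicate 2 (adjusted p = 0.066 against fed, 0.0648 against 8 h), and singly without fed replicate 1 (0.0809), fed replicate 2 (0.0539) or 8 h replicate 2 (0.068).

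Acot4 also had its lowest group means at 8 h. In pericentral hepatocytes it stood at 98.1, 93.01 and 71.95 CPM fed, 48.7, 42.3 and 79.5 CPM after 8 h, and 173, 219 and 264 CPM at 24 h. In periportal hepatocytes it stood at 56.7, 62.2 and 82.7 CPM fed, 79.8, 49.2 and 62.1 CPM after 8 h, and 120.2, 161 and 145 CPM at 24 h. The fed and 8 h libraries overlapped in both zones and the 24 h libraries lay above them all. At 8 h the differences were −0.62 ± 0.24 and −0.08 ± 0.24 (edgeR adjusted p = 0.105 and 0.88), of which the pericentral one passed only without pericentral 8 h replicate 3 (−0.94, adjusted p = 0.0156). At 24 h Acot4 rose against fed by 1.32 ± 0.24 and 1.08 ± 0.24 (adjusted p = 0.00138 and 0.00588). Against 8 h it rose by 1.94 ± 0.25 and 1.16 ± 0.24 (adjusted p = 0.000391 and 0.0112); the periportal rise missed the threshold without 24 h replicate 2 (0.0535) or 8 h replicate 2 (0.0553). The sum of Acot3, Acot4, Acot5 and Acot6 changed by −0.81 at 8 h in pericentral hepatocytes (adjusted p = 0.0726) and rose at 24 h by 1.73 and 1.33 (adjusted p = 0.000699 and 0.00452).

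**Figure D5:**
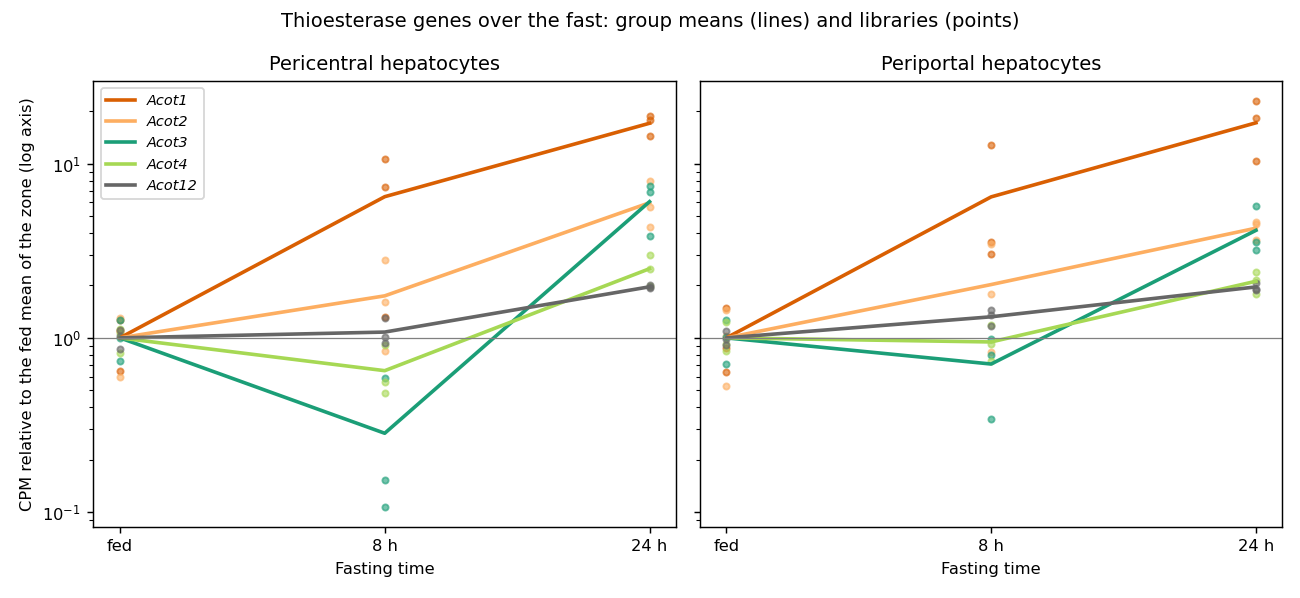
CPM of each thioesterase gene divided by the fed mean of its zone, on a log axis, against fasting time; points are libraries and lines join group means. At 8 h Acot1 and Acot2 means lie above 1 and Acot3 and Acot4 means below it in both zones, and all 5 genes end above 1 at 24 h.

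Acot12, a cytosolic thioesterase that hydrolyses acetyl-CoA, had the tightest replicates of the 10 genes at 24 h and shares no windows with another gene. It measured 119, 129 and 99.9 CPM fed, 108, 117 and 151 CPM after 8 h, and 223, 226 and 233 CPM at 24 h in pericentral hepatocytes. In periportal hepatocytes it measured 96.4, 104 and 115 CPM, 152, 124 and 142 CPM and 199, 202 and 218 CPM. The 24 h libraries lay above all others of both zones, and the 8 h libraries lay above the fed ones in periportal hepatocytes only. Acot12 rose at 24 h against fed by 0.97 ± 0.13 (edgeR adjusted p = 5.37e-05) and 0.97 ± 0.13 (adjusted p = 6.9e-05), in every fit without 1 library. At 8 h it rose in periportal hepatocytes by 0.40 ± 0.12 (adjusted p = 0.0395) and was at 0.11 ± 0.12 in pericentral ones (adjusted p = 0.638). The periportal 8 h rise missed the threshold without periportal 8 h replicate 1 (adjusted p = 0.119) or 3 (0.0978), without fed replicate 1 (0.157) or 2 (0.0994), and with only those groups in the fit (0.0672) or no filter beyond 1 count (0.0507). Between 8 h and 24 h it rose by 0.86 ± 0.13 and 0.57 ± 0.12 (adjusted p = 0.00067 and 0.0123; the latter 0.0652 without periportal 8 h replicate 2).

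PPARα binds DNA with its partner RXR at a direct repeat of AGGTCA with 1 base between the copies. That repeat was searched on both strands, as the only motif, in RefSeq promoters (GRCm38.p6) from 250 bases before to 50 bases after the start, which were given for 6 of the 10 genes; Cyp4a10, Cyp4a12a, Cyp4a14 and Cyp4a31 had none in the table. Of these 6 genes Acot12 and Acot4 had the closest matches, and 120 bases of each are shown with the match in capitals. The Acot12 segment is chr13:91741357-91741476 on the plus strand, with the match on the minus strand beginning at base −110 from the start, and the Acot4 segment is chr12:84038259-84038378, with the match on the minus strand beginning at base −13.
Acot12: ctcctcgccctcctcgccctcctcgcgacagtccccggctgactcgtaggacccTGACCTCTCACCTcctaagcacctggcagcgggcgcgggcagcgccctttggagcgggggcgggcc
Acot4: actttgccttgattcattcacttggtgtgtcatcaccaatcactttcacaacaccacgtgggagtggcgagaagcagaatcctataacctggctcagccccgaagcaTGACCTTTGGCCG
The Acot12 match has 1 difference from the repeat, and 0.554% of all 32851 promoters in the table hold a match with at most 1. The Acot4 match has 2 differences, and 3.86% of promoters hold a match with at most 2. The best matches of Acot2, Acot3 and Cyp4a32 had 3 differences, as 24.6% of promoters do or better, and that of Acot1 had 4. A match describes the letters of this window and is not a binding site.

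Between the zones, all members except Cyp4a31 had a negative periportal minus pericentral value averaged over the 3 states, and 3 of 10 passed, all lower in periportal hepatocytes, where 20.3% of genes tested passed. The median over the 10 was −0.35, against 0.00 over all genes. Without periportal fed replicate 3 Cyp4a31 turned from 0.18 to −0.22, Cyp4a14 went from −0.03 to −0.43 and Cyp4a10 from −0.31 to −0.82, none of which passed (edgeR adjusted p = 0.616, 0.389 and 0.0613). In these bulk samples, fewer cells of a type and less RNA per cell cannot be told apart. Acot1 had the largest zone value, −1.52 ± 0.40 (edgeR adjusted p = 0.0145), a 2.88-fold lower periportal level. On the fitted means it was near the same size in each state (−1.52 ± 0.74 fed, −1.53 ± 0.66 at 8 h, −1.52 ± 0.65 at 24 h). None of the 3 values passed alone, although at 8 h the value without periportal replicate 1 did (−2.51, adjusted p = 0.0456). Over the settings tried the 8 h value ran from −2.51 to −0.96. In the fed and 24 h states all 3 periportal libraries of Acot1 were below all 3 pericentral ones. Without pericentral 24 h replicate 2, the library with low Glul, the averaged value of Acot1, which passed in every fit without 1 library, was −1.56 (adjusted p = 0.0213). With all 18 libraries, Acot1 and Acot2 summed were at −1.39 (adjusted p = 0.0186).

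Cyp4a32 was lower in periportal hepatocytes on average (−0.61 ± 0.12, edgeR adjusted p = 0.00102) and in the fed state (−0.96 ± 0.20, adjusted p = 0.00653). Summed with Cyp4a10 and Cyp4a31, no value passed: −0.31 on average (edgeR adjusted p = 0.64), −0.004 fed (0.9999) and −0.37 at 8 h (0.813). Cyp4a10 dominates that sum. Cyp4a32 itself was the 1 of 10 genes that passed in the fed state, where 8.01% of genes tested did, and the 1 of 10 at 8 h, where 7.14% did (−0.70 ± 0.20, adjusted p = 0.0425). The 8 h value passed in 8 of the 18 fits without 1 library and was −0.55 without pericentral 8 h replicate 2 (adjusted p = 0.159) and −0.55 without periportal 8 h replicate 2 (adjusted p = 0.178). At 24 h the groups overlapped and the value was −0.18 ± 0.20 (adjusted p = 0.718); at that time 0 of 10 genes passed, where 4.17% of genes tested did, and the median over the 10 was −0.60. Cyp4a12a was lower on average (−0.72 ± 0.23, adjusted p = 0.036), with 8 h libraries that did not overlap (146, 147 and 129 CPM periportal, 178, 276 and 331 CPM pericentral). It passed in 4 of the 18 fits without 1 library: without periportal fed replicate 1 (−0.94, adjusted p = 0.0017), pericentral 8 h replicate 1 (0.0274), or replicate 3 of the pericentral (0.0354) or periportal (0.0231) 24 h group. Without pericentral 24 h replicate 2 it was −0.74 (adjusted p = 0.0504). Summed with Cyp4a12b its value was −0.68 (adjusted p = 0.058). Acot2 was at −0.82 ± 0.29 (adjusted p = 0.0589) and passed with DESeq2 (adjusted p = 0.0132) and without periportal 8 h replicate 1 (0.0137), pericentral 8 h replicate 1 (0.0267), or replicate 3 of the pericentral (0.0436) or periportal (0.0448) fed group. Cyp4a10 (−0.31 ± 0.40), Cyp4a14 (−0.03 ± 0.37), Cyp4a31 (0.18 ± 0.34), Acot3 (−0.40 ± 0.31), Acot4 (−0.28 ± 0.14) and Acot12 (−0.04 ± 0.07) did not pass.

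Whether the fasting change itself differed between zones was tested as the periportal change minus the pericentral change. From fed to 8 h 0 of 10 genes passed with edgeR, where 0% of all genes did, although 680 of the 12477 had an unadjusted p under 0.05, 0 of the 10 among them. From fed to 24 h 0 of 10 passed, where 0.016% of all genes did; 962 of all genes and 1 of the 10 had an unadjusted p under 0.05. That gene was Cyp4a32, at 0.78 ± 0.28 (edgeR adjusted p = 0.514). DESeq2 and limma-voom also called 0 of the 10 for either time. The difference of Acot1 was 0.00 at 24 h (edgeR adjusted p = 1), between rises with an SE of 0.73 in pericentral and 0.76 in periportal hepatocytes. With errors of that size, a value near 0 does not show that the rises were equal. For Acot12 the difference was 0.00 ± 0.18 at 24 h, and for Acot3 it was 1.31 ± 0.78 at 8 h.

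Across the 18 libraries the 3 most alike pairs among the 10 genes were neighbours on their chromosome. As a description, Pearson's r of log2 CPM was 0.972 for Acot3 and Acot4, 0.965 for Cyp4a10 and Cyp4a14, and 0.943 for Acot1 and Acot2, and within groups (after subtracting each group mean) it was 0.879, 0.939 and 0.870. Acot1 and Acot3 reached 0.545 over the libraries and 0.685 within groups. The points share the same libraries and scaling, and Acot1 and Acot2 also share reads. Cyp4a10 and Cyp4a14 share 0% of their 31-base windows and Acot3 shares 5.32% of its windows with Acot4. Cyp4a12a was near 0 with Cyp4a10 (−0.03) and Cyp4a14 (−0.16).

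By the same measure, the 3 other tested genes most like each gene were taken from those with at least 10 CPM in their highest group. Besides each other, Cyp4a10 and Cyp4a14 were nearest to Acadm (0.918 and 0.949) and Acadl (0.916 and 0.955), the medium-chain and long-chain acyl-CoA dehydrogenases of mitochondrial β-oxidation. Acot1 was nearest to Gabarapl1 (0.948), which acts in autophagy, Crat (0.948), the carnitine acetyltransferase, and Cobll1 (0.947), and Acot2 to Cobll1 (0.954), Crat (0.943) and Acot1. Acot3 and Acot4 were nearest to each other and to Bnip3 (0.957 and 0.929), a mitophagy receptor, with Slc25a13 (0.919) for Acot3. Acot12 was nearest to Slc22a5 (0.969) and Slc25a20 (0.953), the carnitine and acylcarnitine transporters, and to Gk (0.942), glycerol kinase. Cyp4a31 was nearest to Cpt2 (0.883), Oplah (0.870) and Ephx2 (0.866), Cyp4a32 to Tle1 (0.921), Ablim3 (0.898) and Arl8b (0.891), and Cyp4a12a to Ces3a (0.862), Acsm1 (0.817) and Ugt2b1 (0.814). These are a description of likeness over 18 libraries and 7313 candidate genes.

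Of the partners of omega-oxidation, Por alone passed at 24 h, the reductase that passes electrons to microsomal P450 enzymes. Of 9 genes that reduce P450 enzymes or oxidise omega-hydroxy acids, 1 rose and 0 fell at 24 h against fed in each zone, where 21.8% of all genes tested passed in pericentral and 19.6% in periportal hepatocytes. Por stood at 531 ± 61.6 CPM fed (SD, n = 3) and 1505 ± 327 CPM at 24 h in pericentral hepatocytes and rose by 1.504 ± 0.25 (edgeR adjusted p = 0.000437). In periportal hepatocytes it went from 284 ± 46.6 to 1092 ± 30.5 CPM and rose by 1.94 ± 0.25 (adjusted p = 7.06e-05). In the zone average 3 of the 9 were lower in periportal hepatocytes and 0 higher, where 9.96% of all genes tested were lower and 10.3% higher, led by Aldh3a2, the fatty aldehyde dehydrogenase that makes the terminal acid, at −3.60 ± 0.38 (adjusted p = 1.27e-05), and including Cyb5a, cytochrome b5, at −0.73 ± 0.09 (adjusted p = 1.14e-05). Aldh3a2 measured 556, 681 and 442 CPM in pericentral and 26.4, 72.6 and 35.5 CPM in periportal fed libraries, which did not overlap.

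Of 8 other Cyp4 genes tested, 3 rose and 1 fell at 24 h in pericentral hepatocytes and 1 rose and 1 fell in periportal ones, where 21.8% and 19.6% of all genes tested passed. Cyp4f15 rose in both zones (0.48 ± 0.10 and 0.67 ± 0.10; edgeR adjusted p = 0.0025 and 0.000255), and Cyp4f14, a leukotriene B4 hydroxylase, fell in both (−0.75 ± 0.11 and −0.80 ± 0.11; adjusted p = 0.000211 and 0.000158). Cyp4f17 rose in pericentral hepatocytes (1.33 ± 0.35, adjusted p = 0.013) and was at 1.05 ± 0.36 in periportal ones (adjusted p = 0.0507). In the zone average Cyp4v3 (0.38 ± 0.08) and the scarce Cyp4b1 (2.62 ± 0.69) were higher and Cyp4f14 (−0.19 ± 0.07) lower in periportal hepatocytes (adjusted p = 0.00261, 0.0127 and 0.045). The median over the list at 24 h was 0.27 in pericentral and 0.17 in periportal hepatocytes.

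Of 17 genes of peroxisomal import and β-oxidation, where dicarboxylic acids are shortened, 9 rose and 1 fell at 24 h in pericentral hepatocytes and 6 rose and 1 fell in periportal ones, with medians of 0.58 and 0.51. Of all genes tested 10.8% rose in pericentral and 9.59% in periportal hepatocytes. Crat, which makes acetylcarnitine, rose by 1.41 ± 0.27 and 1.67 ± 0.28 (edgeR adjusted p = 0.00205 and 0.000813). Crot, which moves medium chains onto carnitine, rose by 1.17 ± 0.33 in pericentral hepatocytes (adjusted p = 0.0206), and Pex11a, a peroxisome division factor, by 1.28 ± 0.19 in periportal ones (adjusted p = 0.000208). In the zone average 7 of the 17 were lower in periportal hepatocytes and 0 higher, where 9.96% of all genes tested were lower, with Pex11a at −1.02 ± 0.11 and the thiolase Acaa1b at −0.89 ± 0.21 (adjusted p = 2.88e-06 and 0.00645).

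Of 10 other thioesterase genes tested, 1 rose and 1 fell at 24 h in pericentral hepatocytes and 3 rose and 1 fell in periportal ones, where 21.8% and 19.6% of all genes tested passed, with medians of 0.08 and −0.08. Acot8, a further peroxisomal thioesterase, rose by 0.75 ± 0.15 and 0.66 ± 0.15 (edgeR adjusted p = 0.00205 and 0.00612), and Them4 by 0.65 ± 0.18 in periportal hepatocytes (adjusted p = 0.0174). Acot11, a long-chain thioesterase first described in brown fat, fell in both zones (−2.09 ± 0.48 and −2.03 ± 0.50; adjusted p = 0.00721 and 0.011), from 30.7, 32.7 and 19.6 CPM fed to 10.04, 5.26 and 4.15 CPM at 24 h in pericentral libraries. In the zone average Ppt2 was higher (0.24 ± 0.05) and Acot6 (−1.27 ± 0.24) and Acot8 (−0.45 ± 0.09) lower in periportal hepatocytes (adjusted p = 0.00457, 0.00114 and 0.00132). Acot6, the last gene of the chromosome 12 row, stayed between 0.276 and 1.55 CPM in all libraries.

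Thioesterases set coenzyme A free. Of 11 genes tested for its synthesis, transport and breakdown, 2 rose and 3 fell in pericentral and 2 rose and 2 fell in periportal hepatocytes at 24 h, where 21.8% and 19.6% of all genes tested passed. Nudt7, the peroxisomal CoA diphosphatase, fell most, from 342, 378 and 322 CPM fed to 97.8, 96.6 and 70.1 CPM at 24 h in pericentral libraries, with a log2 fold change of −1.98 ± 0.24 (edgeR adjusted p = 4.56e-05), and one of −2.25 ± 0.24 in periportal ones (adjusted p = 2.2e-05). Vnn1, a pantetheinase, rose by 1.60 ± 0.38 in pericentral hepatocytes (adjusted p = 0.00884). Slc25a42, the mitochondrial CoA carrier, rose by 0.75 ± 0.19 and 0.93 ± 0.20 (adjusted p = 0.0117 and 0.00342) and Pank1, a pantothenate kinase, by 0.47 ± 0.12 in periportal hepatocytes (adjusted p = 0.0121). The CoA synthesis genes Ppcdc (pericentral, −1.44 ± 0.29, adjusted p = 0.0023) and Ppcs (periportal, −0.54 ± 0.12, adjusted p = 0.00445) fell.

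Among 26 genes, PPARα targets outside the 2 families and Ppara itself, 19 rose and 0 fell at 24 h in pericentral and 20 rose and 0 fell in periportal hepatocytes, where 10.8% and 9.59% of all genes tested rose and 11.1% and 10% fell, with medians of 0.76 and 0.72. At 8 h 2 rose and 1 fell in pericentral and 5 rose and 1 fell in periportal hepatocytes, with medians of 0.28 and 0.33, where 7.27% and 7.56% of all genes tested rose and 6.57% and 6.85% fell. Angptl4, a secreted lipoprotein lipase inhibitor, rose most at 24 h, by 3.00 ± 0.28 and 4.43 ± 0.30 (edgeR adjusted p = 6.18e-06 and 5.12e-07), and was already 2.74 ± 0.28 and 4.27 ± 0.30 higher at 8 h (adjusted p = 1.51e-05 and 6.47e-07). The carnitine transporter Slc22a5 rose by 1.94 ± 0.22 in pericentral hepatocytes (adjusted p = 2.67e-05) and the pyruvate dehydrogenase kinase Pdk4 by 2.83 ± 0.74 in periportal ones (adjusted p = 0.0169). Ppara itself rose at 24 h, from 109, 103 and 86.2 to 187, 214 and 180.4 CPM in pericentral libraries (0.96 ± 0.15, adjusted p = 0.000245) and from 68.99, 79.1 and 81.2 to 145, 136 and 129 CPM in periportal ones (0.84 ± 0.15, adjusted p = 0.000897), without overlap in either zone.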

How the data were processed

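The 18 RNA-seq libraries of pericentral and periportal hepatocytes (6 groups of 3) used the NEBNext Ultra RNA kit, per the labels' protocols. Estimated counts per gene were deposited by the authors in a single table; kallisto 0.46.0 and the mm10 build are named in the submitters' processing notes, while the annotation, settings, use of strand and summing over transcripts are not given in the sources used here. Without strand, reads from a gene and its antisense partner cannot be told apart. Because reads were shared out among similar transcripts, near-identical copies are uncertain. Totals of 18359911 to 26384358 estimated counts per library set the counting precision, and 3 libraries per group limit every comparison.

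The estimated counts were rounded to whole numbers. In R 4.3.3, edgeR 4.0.16 (TMM scaling, filterByExpr, robust quasi-likelihood fit of all 18 libraries with 1 coefficient per group) tested 12477 of 28030 genes in 12 contrasts, with Benjamini-Hochberg adjustment over all genes tested and a threshold of 0.05. The SE is the log2 fold change divided by the square root of F. CPM use the TMM factors, and correlations use log2 CPM with a prior count of 2. In simulated counts for pericentral 24 h against fed (12239 genes), 65% of 100 genes changed 2-fold and 97% of 100 changed 4-fold were called, with 4 unchanged genes called. Deviations from the group means were correlated between libraries of different groups. The median r was 0.03 over 45 same-numbered pairs (from −0.12 to 0.21) and −0.02 over 90 differently numbered pairs (from −0.17 to 0.14). The numbers were not taken to pair samples in the main fit, and whether same-numbered libraries share a mouse or day was not tested. Alternatives were DESeq2 size factors, no filter beyond 1 count, only the groups compared, the replicate block, the DESeq2 1.42.0 Wald test, limma-voom (limma 3.58.1), summed copies and leaving out each library.

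Transcript windows, coordinates and coding sequences are from GENCODE M21 on GRCm38, the same assembly as mm10, and promoters from RefSeq (GRCm38.p6). The members and gene lists (other Cyp4 genes, omega-oxidation partners, peroxisomal oxidation, other thioesterases, coenzyme A supply and breakdown, PPARα targets, male-biased genes and cell type markers) were chosen with earlier results of these data known. Besides the 10 genes, the text names the 3 most correlated genes of each, up to 2 genes per direction that passed in each list at 24 h against fed (and in the zone average for the first 4 lists), Ppara, and the zone checks Cyp2e1, Glul, Cyp2f2 and Sds. Some genes within this rule are not reported here.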

Additional observations from a re-analysis of the deposited data

How the results depend on the processing

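Of 742 alternative values of the 30 differences that passed among the 10 genes, 636 kept their direction and stayed past the threshold, 105 kept their direction and missed it, and 1 reversed: Cyp4a32 at 8 h in periportal hepatocytes, which was −0.35 when summed with Cyp4a10 and Cyp4a31. That sum is mostly Cyp4a10 by construction. With only the groups compared in the fit, the number of genes passing was 8 in place of 5 at 24 h against fed in pericentral hepatocytes, 1 in place of 3 at 8 h against fed in each zone, and between the zones 2 in place of 1 fed (Acot1 in addition), 0 in place of 1 at 8 h and 1 in place of 0 at 24 h (Acot2). No filter beyond 1 count gave 1 in place of 3 at 8 h in periportal hepatocytes, and DESeq2 gave 5 in place of 3 at 24 h against 8 h there; the cause was not tested.

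Leaving out each library in turn moved the number of genes passing over a range of 5 to 8 at 24 h against fed in pericentral hepatocytes (8 without periportal fed replicate 3) and 4 to 9 in periportal ones (4 without periportal fed replicate 2). At 8 h against fed the range was 0 to 3 in pericentral hepatocytes (0 without pericentral 8 h replicate 2 or fed replicate 3, and 1 without fed replicate 1 or 2) and 1 to 3 in periportal ones (1 without periportal 8 h replicate 1 or fed replicate 1 or 2). At 24 h against 8 h in periportal hepatocytes it was 0 to 6 (0 without periportal 8 h replicate 2, 1 without 24 h replicate 2, 6 without fed replicate 3). Between the zones at 8 h it was 0 to 2, where the single gene passing was Cyp4a32 and 2 passed without periportal 8 h replicate 1. The replicate block changed no call among these 30 differences; it gave 6 in place of 5 genes at 24 h against fed in pericentral hepatocytes and the same number in the other comparisons. Few counts lay behind the low values of Acot2 (1.08 to 27.0 CPM), Cyp4a31 (2.04 to 42.4 CPM) and periportal fed Acot1 (2.24 to 5.25 CPM).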
